A study of Mus musculus with 6 samples.

Results

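Complement is a set of plasma proteins and cell-surface receptors that tags microbes and damaged cells and draws in phagocytes. The classical pathway starts when C1q binds antibody or other ligands, the lectin pathway when mannose-binding lectins or ficolins bind sugars, and the alternative pathway by slow activation of C3 with factor B, and all of them meet at the cleavage of C3 and then of C5, after which C6 to C9 assemble the membrane attack complex. Hepatocytes make most of the circulating components, macrophages and dendritic cells make the C1q chains, and several tissues, the uterine epithelium among them, make C3 and factor B of their own. The expression of 33 mouse genes for complement components, regulators and receptors, named by symbol, was examined among 20284 gene symbols on one-colour Agilent arrays.

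The 6 arrays cover liver, ovary and uterus of immature female CD-1 mice, an outbred stock, recorded as 24 days old. The mice were gavaged for 3 days with BHPF (fluorene-9-bisphenol, a bisphenol used in place of bisphenol A) at 50 mg per kg of body weight a day or with the peanut oil vehicle as control. The RNA on an array came from a pool of 3 mice, and there was 1 array per group, so no test between groups could be made. All values below describe these 6 pools. A level is the log2 intensity minus the 75th percentile of its array, and a log2 ratio is the level on the BHPF array minus that on the tissue's control array. Levels of different genes come from different probes and were not compared with each other. A gene was called higher or lower at a difference of at least 2-fold. In bulk tissue, fewer cells of a type and less RNA per cell cannot be told apart.

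Probes were matched to 32 of the 33 genes. None was matched to C7, a terminal component, which was therefore not measured here. Fcnb, a myeloid ficolin, was not well above background on any array, and the other 31 genes passed, 23 of them on all 6 arrays. Between 61.4% and 74.6% of the 55681 probes on an array were well above background, and no spot was saturated. The tissue labels were checked against marker lists. The 20 hepatocyte markers summed to a linear level (the 75th percentile of an array being 1) of 688 (control) and 662 (BHPF) in the liver, against 15.2 and 16.8 in the ovary. The summed level of the 12 uterus markers was highest on the uterus arrays and that of the 12 ovary markers on the ovary arrays. On the control uterus array the hepatocyte markers summed to 6.99, and on the BHPF uterus array to 62.9.

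The genes were grouped by the cells known as their main source, which gave 13 hepatocyte genes (Hc, which encodes C5, with C6, C8a, C8b, C8g, C9, Cfi, Mbl1, Mbl2, Masp1, Masp2, C4bp and Vtn), 7 genes made in liver and many other tissues (C1ra, C1s1, C2, C3, C4b, C7 and Cfb), 10 genes of macrophages and other myeloid cells (C1qa, C1qb, C1qc, Fcna, Fcnb, Cfp, C3ar1, C5ar1, Itgam and Itgb2) and 3 genes of other cells (Cd55, Cd59a and Cr2). The proximal promoters of 26 of the 33 genes were found in a RefSeq table of GRCm38.p6, and the 250 bases before the gene start were searched on both strands. The motif GTTAAT, a core of the site of the liver factor HNF1, was in 5 of the 11 hepatocyte genes found (45.5%), in 2 of 4 genes made in many tissues (C1ra and C7), in 1 of 8 myeloid genes, in 1 of 3 genes of other cells (Cr2) and in 7.49% of all 27025 genes. The motif GAGGAA, of the kind bound by the myeloid factor PU.1, was in 4 of the 8 myeloid genes, in 0 of the 11 hepatocyte genes and in 25.9% of all genes. Of the other motifs searched, TTNNGNAA (C/EBP type) was in 36.4% of hepatocyte, 62.5% of myeloid and 40.3% of all genes, CAAAG (HNF4 type) in 54.5%, 50.0% and 52.2%, and an NF-kB type motif in 0 of 11 hepatocyte genes, 2 of 8 myeloid genes and 19.7% of all genes. Among the 4 genes made in many tissues, TTNNGNAA was in 4, CAAAG in 2, the NF-kB type motif in 2 and GAGGAA in 0. Among the 3 genes of other cells these motifs were in 0, 0, 2 and 1. Among the 9 matches of GTTAAT in the promoters of the complement genes 1 overlapped another of these motifs, as did 0 of the 8 matches of GAGGAA. A match is a run of letters, and binding was not measured.

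The following lines show the GTTAAT match (capitals, also as its reverse complement ATTAAC) in all 5 hepatocyte genes that hold it. The GAGGAA match (capitals, also as TTCCTC) is shown in the genes of 2 C1q chains for contrast. Each is read 5′ to 3′ on the strand of its gene. The windows are chr2:35061446-35061521 (minus strand) for Hc, chr4:104876465-104876540 (minus) for C8a, chr4:104766076-104766151 (plus) for C8b, chr1:130661642-130661717 (minus) for C4bp, chr11:78498973-78499048 (plus) for Vtn, chr4:136886201-136886265 (minus) for C1qb and chr4:136893067-136893142 (minus) for C1qc.
Hc: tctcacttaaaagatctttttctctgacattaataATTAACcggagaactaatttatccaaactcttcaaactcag
C8a: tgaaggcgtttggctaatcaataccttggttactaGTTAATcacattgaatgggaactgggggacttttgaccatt
C8b: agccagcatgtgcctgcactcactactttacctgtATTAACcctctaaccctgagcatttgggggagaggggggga
C4bp: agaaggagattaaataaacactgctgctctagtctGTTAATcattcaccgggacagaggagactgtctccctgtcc
Vtn: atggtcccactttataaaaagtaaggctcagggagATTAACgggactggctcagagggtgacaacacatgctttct
C1qb: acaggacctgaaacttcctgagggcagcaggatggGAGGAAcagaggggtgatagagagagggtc
C1qc: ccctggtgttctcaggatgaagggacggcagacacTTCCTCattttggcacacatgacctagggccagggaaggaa
The matches begin 74, 107, 206, 64 and 112 bases before the gene start in Hc, C8a, C8b, C4bp and Vtn, and 30 and 193 bases before it in C1qb and C1qc.

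The control arrays gave the level of each gene in each tissue pool of vehicle-treated mice. Of the 31 genes that passed, 26 were at least 2-fold higher on the control liver array than on both other control arrays, against 15.2% of all genes. They were all 13 hepatocyte genes and 5 of the 6 genes made in many tissues (all but C1s1). The others were 6 of 9 myeloid genes (all but C3ar1, C5ar1 and Itgam), Cd59a and Cr2. Cr2 was included through its dimmer probe, at −2.96 in the liver, −5.43 in the ovary and −5.10 in the uterus. Its brighter probe, at 1.32, 0.92 and 0.97, differed by less than 2-fold. With levels not well above background entered as bounds, the hepatocyte genes differed most, with a median log2 difference of 5.97 from the ovary and 6.95 from the uterus, and the myeloid genes least, with 1.84 and 1.61. The median over all genes was 0.01 and 0.02. C8a, a chain of C8, had a control level of 3.64 in the liver and was at least 913-fold brighter there than in the ovary, where 1 of its 2 probes was not well above background, while C1qa, a chain of C1q, was 3.21-fold brighter. Fcna, the ficolin of liver and spleen macrophages, stood apart from the other myeloid genes at 76.1-fold over the ovary and 28.3-fold over the uterus. C3ar1, the receptor for C3a on myeloid cells, had levels of −2.40 in the liver, −1.34 in the ovary and −1.17 in the uterus, and the liver was the lowest of the 3.

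**Figure D1:**
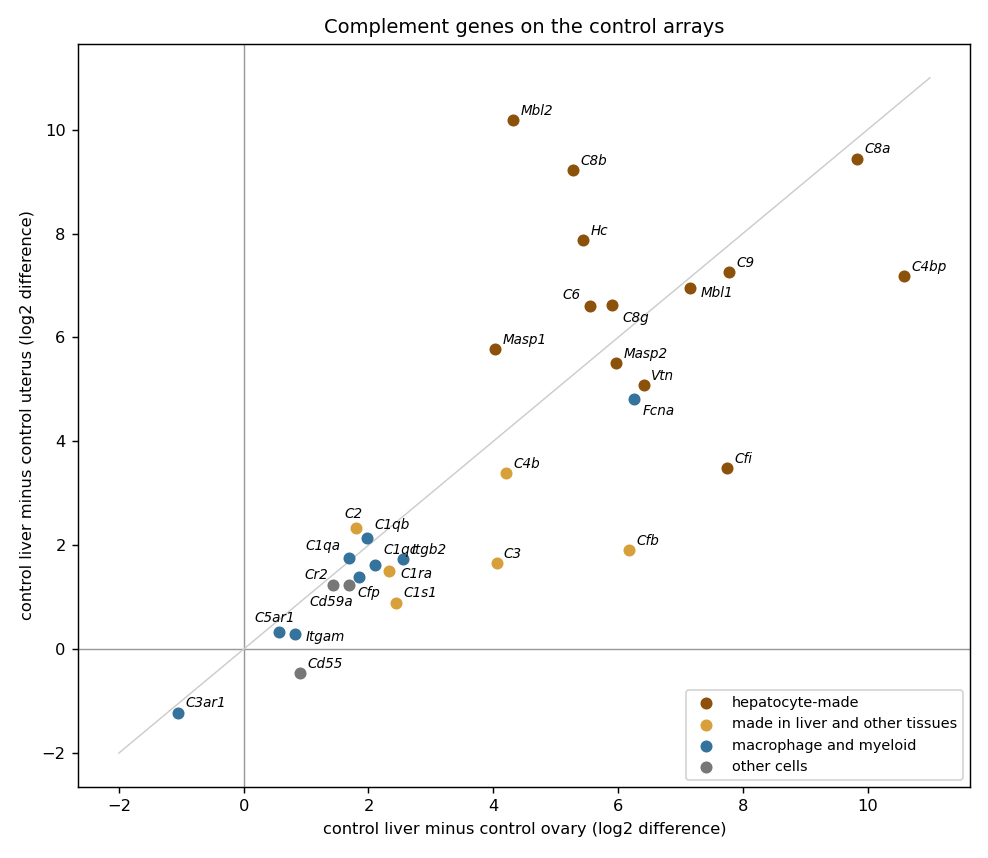
Control liver minus control ovary (x axis) and minus control uterus (y axis), both as log2 differences, with 1 point per complement gene coloured by its usual source and a diagonal of equal differences. Hepatocyte genes lie at the upper right, C3ar1 is below 0 on both axes, and Mbl2 and C8b lie above the diagonal while Cfb, Cfi and C4bp lie below it.

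The reproductive organs differed from each other. On the control arrays, 8 of 30 genes evaluated were at least 2-fold higher in the uterus than in the ovary (13.7% of all genes) and 5 were lower (11.1% of all genes). Cfi, the protease that inactivates C3b and C4b, had a level of 0.88 in the control uterus and −3.39 in the control ovary, a 19.3-fold difference. Cfb, the protease of the alternative pathway C3 convertase, was at 2.41 and −1.86, a 19.2-fold difference, and C3 at 3.84 and 1.45, a 5.27-fold difference. The alternative pathway substrate, its protease and the inactivator of C3b were thus all higher in the uterus. C4bp, which binds C4b as a cofactor of factor I, was at −2.92 in the uterus and not well above background in the ovary, at least 10.6-fold higher. C1s1, the protease of the C1 complex, was 2.93-fold, Fcna 2.69-fold, Cd55, which speeds the decay of convertases on cell surfaces, 2.57-fold, and Vtn, the plasma inhibitor of the membrane attack complex, 2.51-fold higher. In the other direction, Mbl2, a mannose-binding lectin, was at 0.46 in the control ovary and not well above background in the control uterus, at least 58.0-fold higher in the ovary. C8b, another chain of C8, was at least 15.4-fold and Hc 5.39-fold higher in the ovary. Masp1, a protease carried by the lectins, was at least 3.34-fold and C6 2.09-fold higher there. The control ovary held 5.01% of the control liver level of Mbl2, 6.10% of that of Masp1, 2.58% of that of C8b and 2.30% of that of Hc. The hepatocyte markers summed to 15.2 on the control ovary and 6.99 on the control uterus array. Their part in the levels of these genes was not tested.

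**Figure D2:**
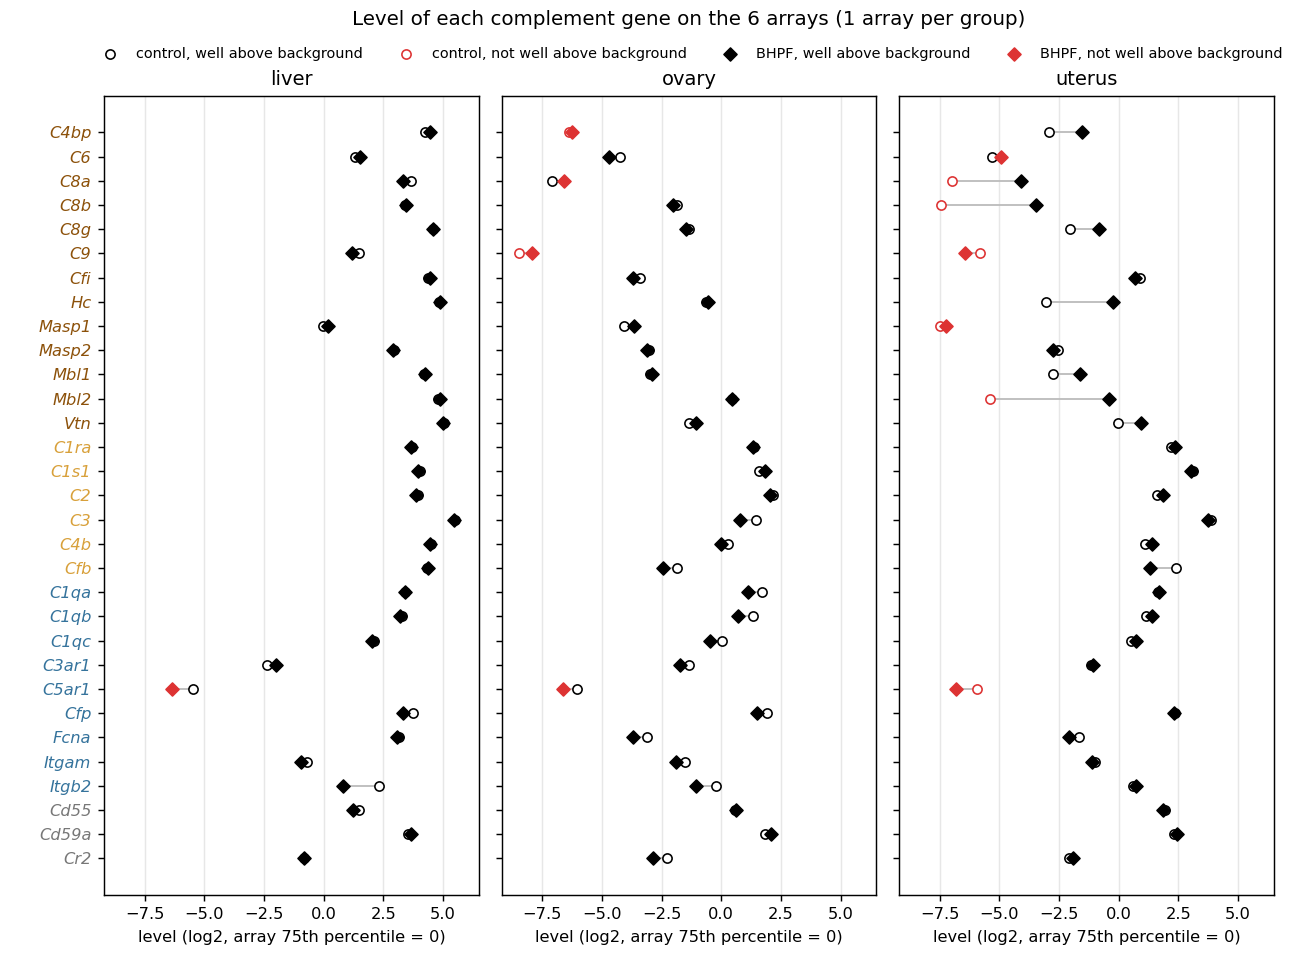
Level of the 31 complement genes that passed (log2, array 75th percentile at 0) on the control (circles) and BHPF (diamonds) arrays of liver, ovary and uterus, 1 array each, with grey lines joining the arrays of a tissue and red marking levels not well above background. Gene names are coloured by usual source, from hepatocyte (top) to other cells (bottom), and the widest gaps are those of Mbl2, C8b, C8a and Hc in the uterus.

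In the uterus, BHPF against control gave 7 complement genes at least 2-fold higher and 1 lower of 28 evaluated, beside 2.35% higher and 0.871% lower of all genes. The 7 genes were Mbl2, C8a, Hc, C8b, C4bp, C8g and Mbl1, all from the 11 hepatocyte genes evaluated, and the lower gene was Cfb. The direction rests on the labels of the scanner files, because the columns headed control and BHPF uterus in the authors' table of log2 values held each other's scanner values in 100% of 38802 probes. If those column headings were right, every uterine ratio given here would change sign. The median log2 ratio of the 11 hepatocyte genes was 1.22, with 4 of them entered as bounds, while it was 0.04 for the 6 genes made in many tissues, 0.08 for the 8 myeloid genes and 0.00 for all genes. Of the 7 genes, Mbl2, C8a and C8b were well above background on the BHPF array only, so they could be called in no direction but higher. With genes well above background on both arrays, 4 were higher of 24.

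Terminal components made up 4 of the 7 genes, Hc, C8a, C8b and C8g, but C8a and C8b could be called in no direction but higher. Only 2 terminal genes, Hc and C8g, were well above background on both uterus arrays. Hc, whose product C5 is cut into the chemoattractant C5a and the initiator C5b, had a level of −3.06 on the control and −0.23 on the BHPF uterus array, 7.14-fold higher. The first C8a probe was at −6.82, not well above background, on the control array and at −2.18 on the BHPF array, at least 12.4-fold higher, and the other C8a probe was not well above background on either. C8b was at −7.43, again not well above background, and −3.47, at least 5.05-fold higher. The BHPF array was the higher for all 3 genes in the uterus, whereas the liver arrays had log2 ratios of 0.06 for Hc, −0.31 for C8a and 0.02 for C8b. C8g, the lipocalin-like chain of C8, was measured by 2 probes that were unequal in size, from −2.43 to −1.85 and from −1.67 to 0.19, with ratios of 0.58 and 1.86. C6 was well above background on the control uterus array only, at −5.30, with −4.94 on the BHPF array, so no difference could be given. C9, the pore-forming unit, was not well above background on either uterus array.

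The lectin pathway split. Mbl2 was at −5.40, not well above background, on the control and at −0.42 on the BHPF uterus array, at least 31.4-fold higher, and Mbl1 at −2.75 and −1.61, 2.21-fold higher. Both encode the sugar-binding collectins of this pathway. Masp2, the protease that cuts C4 and C2, was measured by 3 probes with uterine log2 ratios of −0.08, −0.56 and 0.08, and Masp1 was not well above background on either uterus array. Fcna was at −1.67 and −2.07, a ratio of −0.40, so the ficolin of macrophages lay on the other side of 0 from the lectins of hepatocytes.

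Among the soluble regulators, C4bp was at −2.92 and −1.52, 2.64-fold higher on the BHPF uterus array. Vtn was at −0.03 and 0.92, 1.93-fold higher and just under the threshold. Cfi was at 0.88 and 0.67, a log2 ratio of −0.22, and was the hepatocyte gene with the control uterus level nearest to that of the liver, at 8.96% of it. Cfb was at 2.41 and 1.33, 2.11-fold lower, next to C3, which has long been known as an oestrogen-responsive gene of the rodent uterus, at 3.84 and 3.76. The 2 C3 probes gave ratios of 0.02 and −0.20. The classical pathway proteases and C4b, the main C4 gene, did not reach the threshold in the uterus either, with ratios of 0.16 for C1ra, −0.10 for C1s1, 0.23 for C2 and 0.26 for C4b. The probe of C4b was not checked against its near-identical neighbour C4a, for which no probe was matched.

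The hepatocyte markers moved with the hepatocyte complement genes in the uterus. All 20 of the 20 markers evaluated were at least 2-fold higher on the BHPF array, with a median log2 ratio of 4.12, and all 20 were well above background there, 17 on the control array. Alb, serum albumin, was at −0.92 on the control and 3.36 on the BHPF uterus array, Fgb, a fibrinogen chain, at −2.53 and 2.01, and Serpina1a, an antitrypsin, at −1.21 and 2.44. Their part in the complement result was not tested. The linear excess of the BHPF uterus over the control uterus was set against the control liver level of each gene, for the 15 complement genes at least 8-fold brighter in control liver than in control uterus. It was 2.75% ± 0.444 for Vtn, 2.63% ± 0.190 for Mbl2, 2.62% ± 0.215 for Hc, 1.13% ± 0.136 for C4bp and 0.980% ± 0.136 for Mbl1 (SD from the spread of repeated spots within an array, n = 1 array per group). Of the 15 genes, C6, C9 and Masp1 were not well above background in the BHPF uterus, and for C8a, C8b and Mbl2 the level subtracted was not well above background. The median was 0.790% over all 15 genes, 1.06% over the 12 well above background on the BHPF array, 9 of them above 0, and 6.38% over the 20 markers, which ran from 0.537% to 15.6%. For Fcna the excess was −0.865% ± 0.298 and for Cfi −1.25% ± 0.798.

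**Figure D3:**
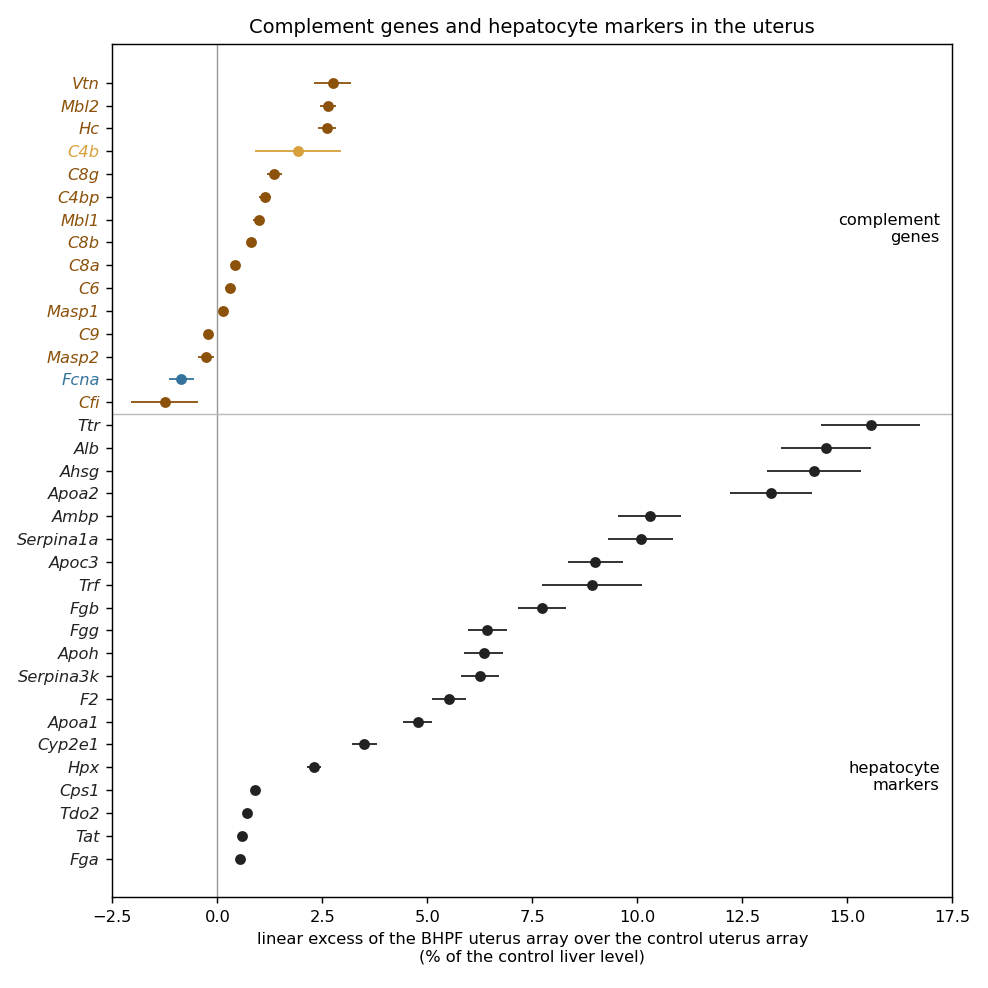
Linear excess of the BHPF uterus array over the control uterus array as a percentage of the control liver level (x axis) for 15 complement genes, coloured by usual source (brown hepatocyte, yellow many tissues, blue myeloid), and 20 hepatocyte markers (black), with bars of 1 SD from the spread of repeated spots. The complement genes lie between −1.25% and 2.75% and the markers between 0.537% and 15.6%; C6, C9 and Masp1 rest on BHPF uterus levels not well above background.

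In the ovary, no complement gene reached 2-fold among 29 evaluated, beside 0.527% higher and 0.675% lower of all genes. The median log2 ratio of the complement genes was −0.14 (−0.32 in the authors' table and with measured values in place of bounds), and 20 were below 0 and 7 above, while the median of all genes was 0.01. The myeloid genes had the lowest median, −0.51, with 8 of 9 below 0 and C5ar1, the C5a receptor, measured on the control array only. All 8 differed by more than 2 SDs of the ratio between spots (0.26), in a tissue where 8.95% of all genes were lower by as much. Itgam did so through 1 of its 3 probes, whose ratios were −0.03, −1.23 and 0.11. The 11 hepatocyte genes had a median of −0.01.

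The C1q chains lay close together in the ovary. C1qa was at 1.71 on the control and 1.10 on the BHPF ovary array, 1.52-fold lower, C1qb at 1.31 and 0.72, 1.51-fold lower, and C1qc at 0.03 and −0.49, 1.43-fold lower. These chains assemble into 1 protein, and their ratios spanned −0.61 to −0.51. In the liver the same chains had ratios of −0.01, −0.11 and −0.09 and in the uterus 0.08, 0.24 and 0.20. Itgb2, the beta chain shared by complement receptors 3 and 4, was at −0.23 and −1.05 in the ovary, 1.77-fold lower. Fcna was at −3.10 and −3.72, 1.54-fold lower, Cfp, which encodes properdin, the stabilizer of the alternative pathway convertase, at 1.91 and 1.51, and C3ar1 at −1.34 and −1.72. The macrophage markers were also lower, 12 of 15 below 0 with a median of −0.54 and a summed level of 29.1 on the control and 19.8 on the BHPF ovary array. Aif1, a macrophage calcium-binding protein, had a ratio of −0.54 there. The part of these markers in the result was not tested.

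C3 had the lowest ovarian ratio outside the myeloid genes. Its probes went from 1.31 to 0.67 and from 1.58 to 0.88, and the gene was 1.59-fold lower. Cfb was at −1.86 and −2.44, 1.49-fold lower, and C4b at 0.30 and −0.03, 1.25-fold lower, and none of the 3 reached the 2-fold threshold. C1s1 was at 1.57 and 1.81, and Cd59a, which blocks the membrane attack complex on cell surfaces, at 1.85 and 2.08, both above 0. Among the hepatocyte genes, Masp1 was at −4.06 and −3.66 and Vtn at −1.36 and −1.06, while C6 was at −4.24 and −4.70. Mbl2 was at 0.46 and 0.45 and Hc at −0.63 and −0.57. The hepatocyte markers had a median ratio of 0.12 in the ovary, with 0 of 18 called.

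**Figure D4:**
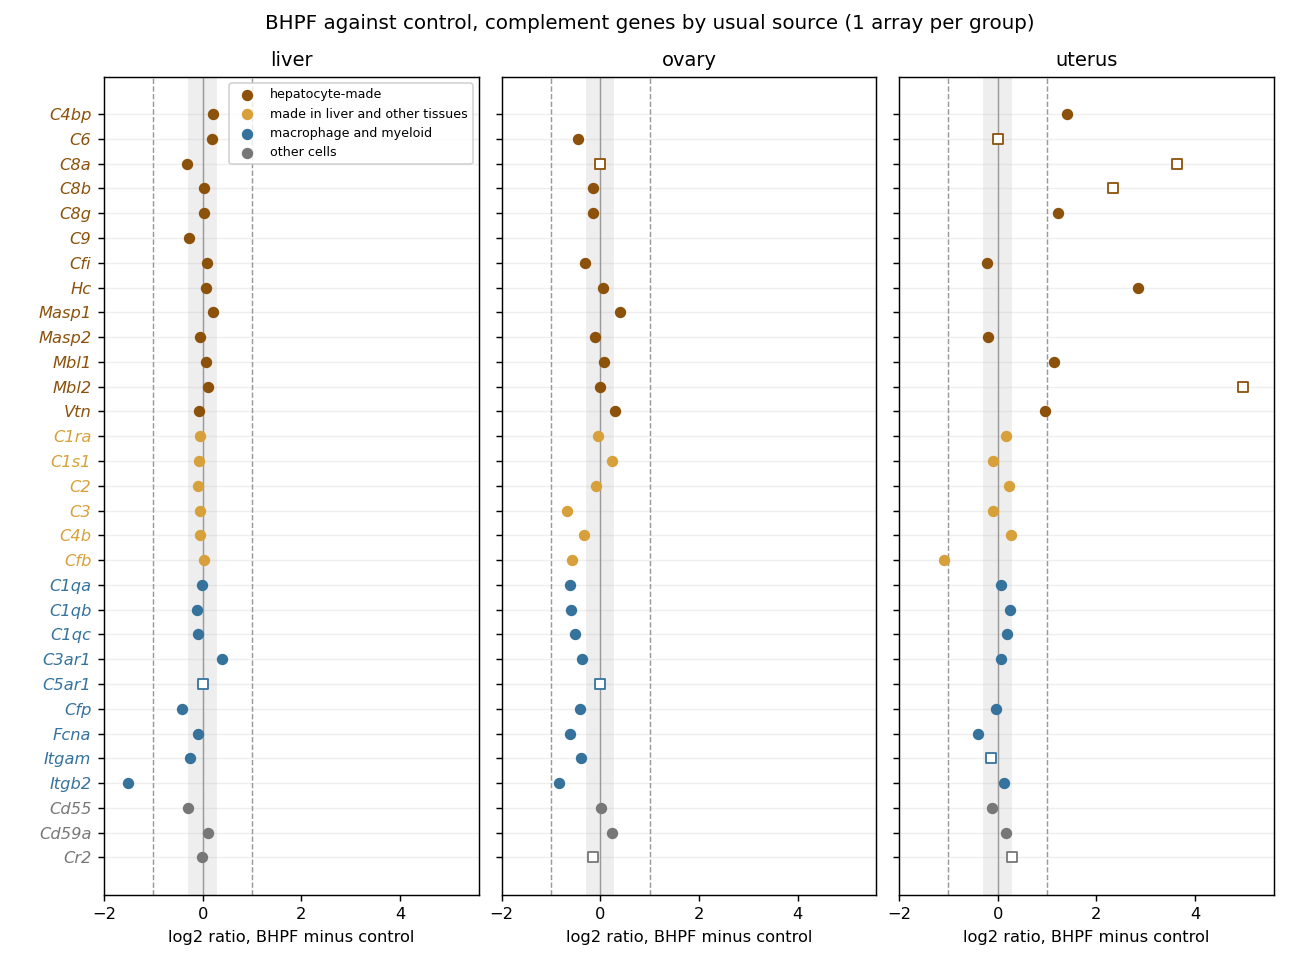
The log2 ratio of BHPF to control for each complement gene in liver, ovary and uterus (1 array per group), coloured by usual source; open squares are bounds, the grey band is 2 SDs of the ratio between spots and dashed lines mark 2-fold. Hepatocyte genes lie to the right in the uterus, 8 of 9 myeloid genes to the left of the band in the ovary, and most genes within the band in the liver.

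In the liver, the organ that makes most complement, 1 gene of 31 evaluated was called, Itgb2, which was lower, beside 3.35% higher and 1.62% lower of all genes. The other 30 genes had log2 ratios between −0.43 (Cfp) and 0.39 (C3ar1). Within 2 SDs of the ratio between spots (0.27) lay 25 of the 31, and outside it 19.4%, against 33.5% of all genes. The median was 0.06 for the 13 hepatocyte genes, −0.06 for the genes made in many tissues, −0.09 for the myeloid genes and 0.00 for all genes. C3 was at 5.50 on the control and 5.44 on the BHPF liver array, Cfb at 4.31 and 4.35, Mbl2 at 4.78 and 4.88 and Vtn at 5.06 and 4.98. Components of all 3 pathways were therefore close between these arrays. C9 was at 1.46 and 1.17 and C8a had probe ratios of −0.22 and −0.40, the lowest of the hepatocyte genes. The 20 hepatocyte markers had a median ratio of 0.02. Whether the uterine and liver ratios differ beyond the spread between pools was not tested.

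Itgb2 was at 2.32 on the control and 0.81 on the BHPF liver array, 2.85-fold lower. Its partner in complement receptor 3, Itgam, was measured by 3 probes that disagreed, with liver ratios of 0.55, −1.53 and 0.18 and ovarian ratios of −0.03, −1.23 and 0.11. Only the second Itgam probe went with Itgb2 in both tissues. Neutrophils carry these integrins, and all 12 neutrophil markers evaluated in the liver were below 0, 9 of them called lower, with a median ratio of −2.42 and a summed level of 55.6 on the control and 23.8 on the BHPF array, where 9 of the 12 stayed well above background. S100a9 was at 3.96 and 1.69, and S100a8 at 3.26 and 0.53, while Csf3r was at 4.27 and 4.12, the highest ratio of the 12 at −0.15. In the ovary 10 of 10 neutrophil markers were below 0, 5 of them called. Of 11 evaluated in the uterus, 7 were below 0 and 4 called lower, with a median of −0.53, while Itgb2 had a ratio of 0.12 there. The macrophage markers in the liver summed to 117 and 84.1, with 14 of 16 below 0. The part of these cells in the Itgb2 result was not tested. C5ar1 was well above background on the control liver array but not the BHPF liver array, at −5.48 and −6.35, which gave no measurable difference.

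The genes of other cells differed by less than 2-fold in each tissue. Cd55 was at 1.50 and 1.20 in the liver, 0.59 and 0.61 in the ovary and 1.96 and 1.85 in the uterus. Cd59a was at 3.53 and 3.63 in the liver and 2.29 and 2.46 in the uterus. Cr2, the B cell receptor for C3d, was measured by 2 probes that disagreed in the liver, with ratios of 0.45 and −0.48, and B cell and follicular dendritic cell markers there had a median ratio of −0.82 over 7 genes.

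A list of 30 other complement genes was set beside these, and 28 of them had a probe. In the uterus 5 of 26 evaluated were higher, beside the 2.35% of all genes. They included Cpn2 (at least 3.07 on the log2 scale) and Cpn1 (at least 1.87), the chains of the carboxypeptidase that inactivates C3a and C5a. Also higher were the pentraxins Apcs (at least 2.88) and Crp (at least 1.33). The last was Vsig4 (1.04), a receptor for C3b on resident macrophages such as those of the liver. On the control array Cpn2, Cpn1, Apcs and Crp were not well above background, so only a higher call was open to them. Vsig4 was well above background on both uterus arrays. Of the 15 macrophage markers evaluated in the uterus, Clec4f, found on liver macrophages, was the one called, with a ratio of 1.21, while Cd5l had 0.27, Marco −0.38 and the list a median of 0.07. In contrast Clu, which encodes clusterin, a plasma inhibitor of the membrane attack complex, had a uterine ratio of 0.05. In the liver 0 of 25 were higher (3.35% of all genes) and in the ovary 1 of 25 (0.527%). Cfd, which encodes factor D or adipsin, the fat-derived protease that cuts factor B, was the gene called in every tissue. It was at −2.78 on the control and −4.41 on the BHPF array in the liver, −2.63 and −0.58 in the ovary, and 0.22 and −2.49 in the uterus, so that its ratio was −1.63, 2.05 and −2.71. The adipocyte marker Adipoq had ratios of −0.15, 1.35 and −3.31 in the same order, and Fabp4 of −0.49, 0.04 and −1.46. In the uterus 4 of 4 adipocyte markers evaluated were below 0, with a summed level of 2.42 and 0.880, and in the ovary 4 of 5 were above 0, with 3.00 and 3.25. Their part in the Cfd values was not tested. On the slide, the control arrays held the positions of one side and the BHPF arrays those of the other, so that treatment and side of the slide cannot be told apart.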

How the data were processed

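RNA of livers, ovaries and uteri was labelled with Cy3 and hybridized to one-colour Agilent arrays, 1 array of 3 pooled mice per group. Scans were quantified by the authors in Agilent Feature Extraction (version 9.1 per the labels, 11.5.1.1 per the file headers). The deposited scanner values are spot intensities on a linear scale, background-subtracted and detrended, with no normalization between arrays. The deposited table of log2 values, a percentile shift of the same intensities made by the authors in GeneSpring, was used as an alternative.

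Control and outlier spots were left out, spots of a probe were averaged as log2, and the 75th percentile over 55681 probes was subtracted in each array. Symbols came from a RefSeq table of GRCm38.p6 through the transcript of each probe (48.1% of probes). Probes well above background on at least 1 array were averaged per gene. A gene was evaluated in a tissue when well above background on at least 1 of its 2 arrays. Where the other array was dim, its level was replaced by the higher of its own value and the lowest level well above background there, and the fold is a bound (at least N-fold, set to no difference when under 1). The precision is limited by the number of arrays, and repeated spots gave a log2 ratio SD of 0.132 to 0.138, which covers noise within an array only. The evaluation of folds was tested on simulated data.

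The complement genes, source groups and marker lists were chosen with earlier results of these data known. All 33 genes are named, beside genes of the other complement list that differ by 2-fold and at most 4 of the brightest markers of a list. Clu, a gene of that list under 2-fold, was chosen to be named after its values were seen, and another gene of it is not reported here. Alternatives covered scaling, background correction (limma 3.58.1 normexp, offset 50, on median spot signals), the authors' table, dim probes, probe choice and threshold. Python 3.11.15, pandas 2.3.3 and R 4.3.3 were used.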

Additional observations from a re-analysis of the deposited data

Results flagged for a closer look

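C8a and C3ar1 had ratios on opposite sides of 0 in different tissues, each beyond 2 SDs of the ratio between spots. C8a had a log2 ratio of −0.31 in the liver and at least 3.63 in the uterus. The uterine value came from its first probe only, whose liver ratio of −0.22 was within 2 SDs of the ratio between spots. That probe was not well above background on the control uterus array, so only a higher ratio was open to it there. C3ar1 had a log2 ratio of 0.39 in the liver and −0.37 in the ovary. Its liver ratio was 0.21 with quantile normalization and 0.08 with the 50th percentile, both within 2 SDs of the ratio between spots. With 1 array per group these differences between tissues were not tested.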

How the results depend on the processing

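The alternatives were run for each tissue. With the 50th percentile, the median over all liver genes fell by 0.30, the share of higher genes among those called in the liver went from 67.4% to 32.5% (39.5% with quantile normalization), and liver medians were −0.36 for all complement genes, −0.26 for hepatocyte, −0.38 for many-tissue and −0.40 for myeloid genes. At 4-fold, 0 complement genes were lower in the liver, and 4 were higher and 0 lower in the uterus. The ovarian median of all complement genes was −0.32 in the authors' table and with own values in place of bounds. With normexp, 0 genes were lower in the uterus (Cfb just short of 2-fold) and the hepatocyte median was 1.06, while with the brightest probe it was 1.40. With both arrays well above background, 4 genes were higher in the uterus. Under the authors' column headings, 1 gene was higher and 7 lower in the uterus, with medians of −0.16 for all, −1.22 for hepatocyte and −0.076 for myeloid genes, and ratios of −2.84 for Hc, −4.65 for C8a, −3.97 for C8b, −1.22 for C8g, 1.08 for Cfb, −1.14 for Mbl1, −4.97 for Mbl2 and −1.40 for C4bp. With those columns exchanged, an alternative chosen after seeing the data, 7 were higher and 1 lower. Apart from the opposite signs under the headings, the cause of these changes was not tested. The median uterine excess was 1.06% over genes well above background on the BHPF array, also chosen after seeing the data. The other 158 summary values stayed within noise or 1.5 times. Itgb2 in the liver ranged from −1.83 to −1.35. Signal over background limits Mbl2, C8a and C8b, whose size in the uterus is a bound.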
